A study of Mus musculus with 2 samples.

Results

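The proteasome genes are those that encode the subunits, activators and assembly chaperones of the proteasome, the large protease that degrades ubiquitin-tagged proteins in the cytoplasm and nucleus. Members were the non-control probes whose gene name began with Psma, Psmb, Psmc, Psmd, Psme or Psmg followed by a digit, and the brightest probe over both arrays stood for a gene. The rule found 47 names of 36493 on the array, on 59 probes. Of these, 46 are proteasome genes and 1, Psmc3ip, encodes a recombination protein that only carries the name of its partner Psmc3. Each array held RNA of neural stem and progenitor cells derived from mouse embryonic stem cells, grown as tertiary neurospheres (passage 2) and taken at 18 days of culture since the embryoid bodies. Cells overexpressing miR-153 gave 1 array, and cells labelled as the overexpression control gave the other. The labels do not say how the microRNA was expressed, or whether cells were pooled or clonal. With no replicates, no difference was tested and none has a replicate check or a p-value. Sizes are read against 2-fold and against technical errors, and in bulk RNA fewer cells of a type and less RNA per cell cannot be told apart.

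The full proteasome joins a barrel-shaped 20S core to a 19S cap at one or both ends. The core has outer rings of alpha subunits, which gate the entry, and inner rings of beta subunits, 3 kinds of which cut peptide bonds. The base of the cap holds a ring of ATPases that unfold substrates and feed them into the core, and the lid holds the enzyme that removes ubiquitin chains. Core and base are built with dedicated chaperones that are not part of the finished particle, and other activators, the PA28 and PA200 proteins, can bind the core in place of the cap. The transcription factors Nfe2l1 and Nfe2l2 are known to raise proteasome genes under stress. Neural stem cells keep proteasomes at work in cell division, and neurons keep them at work at synapses.

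miR-153 is the microRNA that was overexpressed, and it is shown because it defines the comparison. The mature strands are given from RefSeq on GRCm38.p6, 5′ to 3′, with the seed, bases 2 to 8, in capitals. Both lie on the plus strand of chromosome 12, with miR-153-3p at chr12:117250860-117250881 and miR-153-5p at chr12:117250821-117250843.
mmu-miR-153-3p: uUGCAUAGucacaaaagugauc
mmu-miR-153-5p: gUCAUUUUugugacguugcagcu

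Promoter windows of 4 members are shown. They are those of the cap subunits with the most negative differences (Psmd2 and Psmd12) and the most positive one (Psmd13), and of a catalytic core subunit, Psmb6. Each window runs from 250 bases before to 50 bases after the start of the gene in RefSeq on GRCm38.p6, on the plus strand, 5′ to 3′. Psmb6 is at chr11:70525107-70525406, Psmd12 at chr11:107479278-107479577, Psmd2 at chr16:20651402-20651701 and Psmd13 at chr7:140882144-140882443. Capitals mark TGACNNNGC, the core of the antioxidant response element to which Nfe2l1 and Nfe2l2 bind, and CCGGAAG, a motif of ETS factors, each searched on both strands.
Psmb6: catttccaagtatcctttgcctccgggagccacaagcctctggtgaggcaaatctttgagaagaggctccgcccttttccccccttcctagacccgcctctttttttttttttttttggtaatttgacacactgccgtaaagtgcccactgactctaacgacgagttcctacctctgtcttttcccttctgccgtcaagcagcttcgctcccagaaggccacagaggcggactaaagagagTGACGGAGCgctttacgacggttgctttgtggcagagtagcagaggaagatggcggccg
Psmd12: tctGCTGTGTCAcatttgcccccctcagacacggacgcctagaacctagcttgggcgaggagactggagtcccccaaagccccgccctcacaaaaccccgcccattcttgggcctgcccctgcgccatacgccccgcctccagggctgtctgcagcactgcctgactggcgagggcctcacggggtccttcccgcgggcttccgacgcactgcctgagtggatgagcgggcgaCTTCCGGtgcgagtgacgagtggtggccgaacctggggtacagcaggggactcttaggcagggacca
Psmd2: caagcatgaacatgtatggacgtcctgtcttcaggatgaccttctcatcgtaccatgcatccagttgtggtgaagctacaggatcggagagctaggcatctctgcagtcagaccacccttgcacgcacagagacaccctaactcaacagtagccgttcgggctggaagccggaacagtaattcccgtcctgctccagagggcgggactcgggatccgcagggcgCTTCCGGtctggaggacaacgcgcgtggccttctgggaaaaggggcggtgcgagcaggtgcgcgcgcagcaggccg
Psmd13: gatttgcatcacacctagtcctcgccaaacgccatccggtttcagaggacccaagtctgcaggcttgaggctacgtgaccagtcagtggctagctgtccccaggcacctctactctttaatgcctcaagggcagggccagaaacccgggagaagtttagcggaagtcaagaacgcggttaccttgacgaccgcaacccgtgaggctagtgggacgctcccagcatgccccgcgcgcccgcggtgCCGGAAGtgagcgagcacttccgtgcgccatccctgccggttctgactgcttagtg

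The window of Psmb6 holds TGACNNNGC, those of Psmd2 and Psmd13 hold CCGGAAG, and that of Psmd12 holds both. Across the 38 proteasome genes with a window, 6 (15.8%) held TGACNNNGC and 14 (36.8%) held CCGGAAG. The 6 were Psmb5, Psmb6, Psmc6, Psmd9, Psmd12 and Psme4. Counted over windows, since a gene can have several, TGACNNNGC stood in 14.6% of 41 proteasome windows and in 13.0% of 21263 windows of protein-coding genes, and CCGGAAG in 36.6% of the proteasome windows and 11.6% of the coding ones. A GC box, GGGCGG, was in 58.5% of proteasome windows against 46.2% of coding ones, and the motif of nuclear respiratory factor 1 in 17.1% against 8.57%. CCAAT stood in 34.1% against 38.2%, CACGTG in 9.76% against 7.84%, and TATAAA in 7.32% against 12.6%. The 2 motifs in capitals overlapped each other in 0 of the 41 windows. The median log2 difference was -0.25 for the 6 measured genes with TGACNNNGC and -0.26 for the 31 without it. It was -0.29 for the 14 with CCGGAAG and -0.24 for the 23 without it. A match describes letters in a window and shows no binding.

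Of the 46 proteasome genes, 44 were well above background on both arrays, and the differences of those 44 were small. At 2-fold or more, 0 of the 44 were higher in miR-153 cells, a size reached by 9.21% of the 20473 genes measured on both arrays, and 0 were lower, against 11.1% of all genes, or 20.3% either way. Within 1.5-fold lay 41 of the 44 (93.2%), against 56.8% of all genes. The other 3, Psmb9, Psmd2 and Psmd12, were between 1.52-fold and 1.64-fold lower. Every difference given here is miR-153 minus control on the log2 scale, and the median over the 44 genes was -0.28 with a range of -0.71 to 0.31. The median of all genes was -0.11, and that of the 13099 RefSeq-matched ones was 0.0072. The SD over the 44 genes was 0.23, against 0.88 over all genes.

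A negative difference was found for 38 of the 44 proteasome genes, against 56.1% of all genes and 49.6% of the RefSeq-matched ones. With spike-in scaling it was found for 24 of the 44, against 41.7% of all genes and 4660 of the 13099 RefSeq-matched ones. Each level is a log2 processed signal relative to its array's 75th percentile. Using the spike-in control spots for scaling instead adds 0.25 to every log2 difference, which put the median of all genes at 0.15 and that of the proteasome genes at -0.027. The median of the RefSeq-matched genes lay 0.11 above that of all genes. The proteasome median minus that of all genes was -0.17, and 33 of the 44 lay below the median of all genes. Both scales share these values because they shift every gene alike. With quantile normalization the subtraction gave -0.10 and 25 of the 44 lay below the median of all genes, and with lowess normalization it gave -0.065 and 27 lay below. With no filter on dim probes the median of all genes was -0.32, the subtraction gave 0.031, and 21 of 46 lay below. Over all settings that covered every measured member, 17 genes stayed below 0 throughout and 4 stayed above 0 throughout, namely Psmd13, Psmd5, Psme1 and Psme2. The 17 were Psma1, Psma5, Psma6, Psmb1, Psmb7, Psmb9, Psmc5, Psmd1, Psmd2, Psmd11, Psmd12, Psmd14, Psme3, Psme4, Psmg1, Psmg2 and Psmg4. For the other 23 the sign depended on the setting. The order of genes within a role or among the 44 is given on the 75th percentile scale and can differ with other settings.

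**Figure D1:**
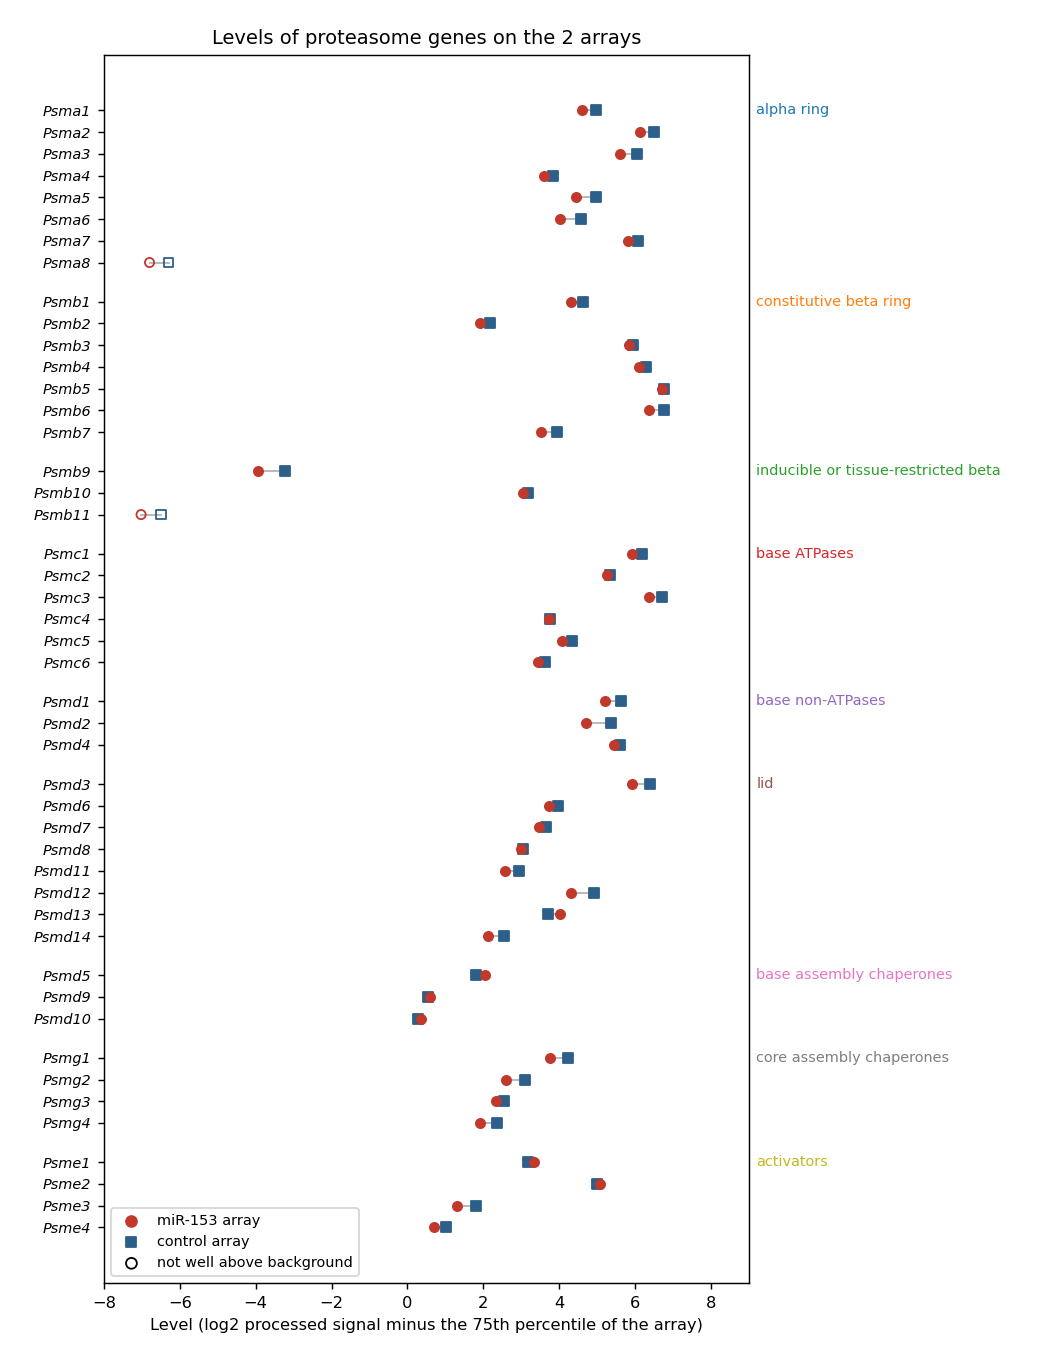
Level of each proteasome gene (log2 processed signal relative to the array's 75th percentile, x axis) on the miR-153 array (red circles) and the control array (blue squares), by role, with open symbols for probes not well above background. Both symbols of each filled gene lie within 0.71 of each other, and Psma8 and Psmb11 are the only open pairs. Horizontal position is not comparable between different probes.

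The precision of these values is technical only. Feature Extraction gave each spot an error, with a median over the 44 genes of 10% of signal on either array. The median error of a log2 difference was 0.20, and 30 of the 44 differences were larger than their own error. Dim probes had larger errors, such as 0.30 for Psmb9. Repeat spots of one probe had a median SD of 0.073 for the difference, over 258 probes with at least 5 repeats, and 40 of the 44 exceeded it. Different probes of a RefSeq-matched gene had an SD of 0.46 over 3442 genes, and 9 of the 44 exceeded that. These counts hold on the 75th percentile scale only. Spike-in scaling adds 0.25 to every difference and so changes them, and it put the proteasome median at -0.027. The scanner error is that of a single gene's difference and gives no error for a median over 44 genes. The spread between cultures was not measured.

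The alpha ring, which gates the core, had 7 measured genes, all with negative differences, from -0.56 to -0.24 with a median of -0.37. The median stayed below 0 under every scaling (-0.12 with spike-in scaling, -0.17 with quantile and -0.089 with lowess normalization). Psma6 had a level of 4.03 on the miR-153 array and 4.58 on the control array, a difference of -0.56 or 1.47-fold lower. Psma5 had a level of 4.44 on the miR-153 array and 4.97 on the control array, a difference of -0.53. Psma3 had a level of 5.60 on the miR-153 array and 6.05 on the control array, a difference of -0.46. These 3 alpha subunits had the most negative differences, each larger than the scanner error. Psma1 was at -0.37. Psma2 had a level of 6.14 on the miR-153 array and 6.51 on the control array, also a difference of -0.37. Psma7 had 5.81 on the miR-153 array and 6.09 on the control array, a difference of -0.27. Psma4 was nearest to 0 in the ring, with 3.59 on the miR-153 array and 3.83 on the control array, a difference of -0.24. With spike-in scaling 6 of the 7 were still below 0, and Psma4 stood at 0.016. Psma2 and Psma7 turned above 0 with quantile and lowess normalization, and Psma3 with quantile normalization. Psma8, an alpha subunit of male germ cells, stayed at background on both arrays.

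The constitutive beta ring, which holds the cutting sites, had 7 measured genes with a median of -0.25, which turned to 0.0023 with spike-in scaling, 0.16 with quantile and 0.10 with lowess normalization. All 7 differences were negative on the 75th percentile scale, 3 with spike-in scaling. Psmb7, the subunit with trypsin-like activity, had a level of 3.53 on the miR-153 array and 3.94 on the control array, a difference of -0.42. Psmb6, the subunit with caspase-like activity, had 6.36 on the miR-153 array and 6.76 on the control array, a difference of -0.41. Psmb5, the subunit with chymotrypsin-like activity, had 6.71 on the miR-153 array and 6.77 on the control array, a difference of -0.065, smaller than the repeat-spot SD. The 3 catalytic subunits thus spanned the whole range of the ring. Among them Psmb6 and Psmb5 both have TGACNNNGC in their windows, and its part in their values was not tested. Of the noncatalytic beta subunits, Psmb1 had 4.31 on the miR-153 array and 4.63 on the control array, a difference of -0.32. Psmb4 had 6.11 on the miR-153 array and 6.29 on the control array, a difference of -0.18. Psmb3 had 5.84 on the miR-153 array and 5.93 on the control array, a difference of -0.099. Psmb2 stood between Psmb1 and Psmb4 at -0.25. With spike-in scaling, Psmb2, Psmb3, Psmb4 and Psmb5 turned above 0, and Psmb6 did so with quantile and lowess normalization.

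Inducible beta subunits replace the catalytic ones in cells exposed to interferon and in immune cells, forming the immunoproteasome. Psmb9, which takes the place of Psmb6, was dim, with a level of -3.94 on the miR-153 array and -3.24 on the control array. Its difference of -0.71, or 1.64-fold lower, was the most negative of the 44 on the 75th percentile scale, on a processed signal of 35.7 intensity units in miR-153 cells and 46.2 in control cells. The scanner error of this difference was 0.30, against a median of 0.20 over the 44. The difference of Psmb9 stayed between -0.71 and -0.45 over the settings, but was not the most negative with normexp (Psmd2, at -0.61) or lowess (Psme3, at -0.53). Psmb10, which takes the place of Psmb7, was well measured, with 3.04 on the miR-153 array and 3.19 on the control array, and its difference of -0.15 lay inside the scanner error. Psmb11, a subunit of thymic epithelium, stayed at background on both arrays.

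Immune and interferon markers were read beside these subunits. Of 7 microglial and other immune markers, 4 stayed at background on both arrays (Ptprc, Aif1, Cx3cr1 and Cd68). The linear levels of the 7, summed relative to the 75th percentile, were 41.8 on the miR-153 array and 27.3 on the control array. Most of this came from Itgam, at a log2 level of 5.27 on the miR-153 array and 4.54 on the control array. Itgam probes ran from -0.75 to 0.73 in difference. The other immune markers measured on both arrays had negative differences, Csf1r at -0.085 (with another probe at 0.28) and Cd3e at -0.53. Of 6 interferon response genes, Irf1 was at -0.65, Isg15 at 0.48 and Irf9 at 0.72, Ifit1 was at background on both arrays, and Ifit3 and Usp18 only on the control array. The summed linear level of the 6 was 3.80 on the miR-153 array and 3.33 on the control array. Their part in the values of Psmb9 and Psmb10 was not tested.

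The base of the cap has 6 ATPases, whose median of -0.23 turned to 0.022 with spike-in scaling, 0.13 with quantile and 0.14 with lowess normalization. All 6 differences were negative on the 75th percentile scale, 3 with spike-in scaling. Psmc3 had a level of 6.36 on the miR-153 array and 6.71 on the control array, a difference of -0.35, and its second probe gave -0.019. Psmc1 had 5.91 on the miR-153 array and 6.20 on the control array, a difference of -0.29, with a second probe at -0.39. These were the most negative differences of the ATPase ring. Psmc5 had 4.09 on the miR-153 array and 4.35 on the control array, a difference of -0.26. Psmc6 had 3.43 on the miR-153 array and 3.63 on the control array, a difference of -0.20, just inside the scanner error. Psmc2 had 5.26 on the miR-153 array and 5.35 on the control array, a difference of -0.091, with a second probe at -0.15. Psmc4 had 3.73 on the miR-153 array and 3.75 on the control array, a difference of -0.012, and normexp background correction turned its sign. Psmc3, Psmc1 and Psmc2 also turned above 0 with quantile and lowess normalization, so that of the ATPases Psmc5 alone stayed below 0 in every setting that covered all measured members.

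The base also holds large scaffold subunits and a ubiquitin receptor. Psmd2, a scaffold that receives ubiquitin-like proteins, had 4.71 on the miR-153 array and 5.36 on the control array, a difference of -0.65 or 1.57-fold lower on its single probe (chr16:20663355-20663414, mm9). Of the 44 genes only Psmb9 had a more negative difference on the 75th percentile scale, and Psmd2 stayed between -0.65 and -0.33 over the settings. Psmd1, the other scaffold, had 5.20 on the miR-153 array and 5.62 on the control array, a difference of -0.42. Psmd4, the ubiquitin receptor, had 5.46 on the miR-153 array and 5.61 on the control array, a difference of -0.15, which turned above 0 with spike-in, quantile and lowess scaling.

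The lid ran from -0.61 to 0.31 over 8 genes, with a median of -0.29, or -0.042 with spike-in scaling. Psmd12 had 4.32 on the miR-153 array and 4.93 on the control array, a difference of -0.61 or 1.52-fold lower, and its second probe gave -0.54. The brighter probe lies at chr11:107358963-107359022 on mm9. Psmd3 had 5.92 on the miR-153 array and 6.40 on the control array, a difference of -0.48, which turned above 0 with quantile normalization. Psmd14, the enzyme that cuts ubiquitin chains from substrates, had 2.13 on the miR-153 array and 2.53 on the control array, a difference of -0.40. These 3 had the most negative differences of the lid, and Psmd11 (-0.36) and Psmd6 (-0.23) followed. Psmd7, the inactive partner of Psmd14, had 3.48 on the miR-153 array and 3.65 on the control array, a difference of -0.17. Psmd8 had 2.98 on the miR-153 array and 3.04 on the control array, a difference of -0.059. With spike-in scaling Psmd6, Psmd7 and Psmd8 turned above 0.

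Psmd13 was the 1 lid gene with a positive difference on the 75th percentile scale. It had 4.01 on the miR-153 array and 3.70 on the control array, a difference of 0.31 or 1.24-fold higher, the most positive of the 44 on that scale. With quantile and lowess normalization Psmb5 was more positive, at 0.54 and 0.47, than Psmd13, at 0.39 and 0.46. Psmd13 has a single probe (chr7:148084248-148084307, mm9), and it lay between 0.31 and 0.56 over the settings. Psmd12 and Psmd13 are both scaffold subunits of the lid with CCGGAAG in their windows. They mark the lower and the upper end of its range, and their windows were picked for that. The windows of Psmd11 (-0.36) and Psmd6 (-0.23), which lie inside that range, hold CCGGAAG too. The part of the motif in these values was not tested.

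**Figure D2:**
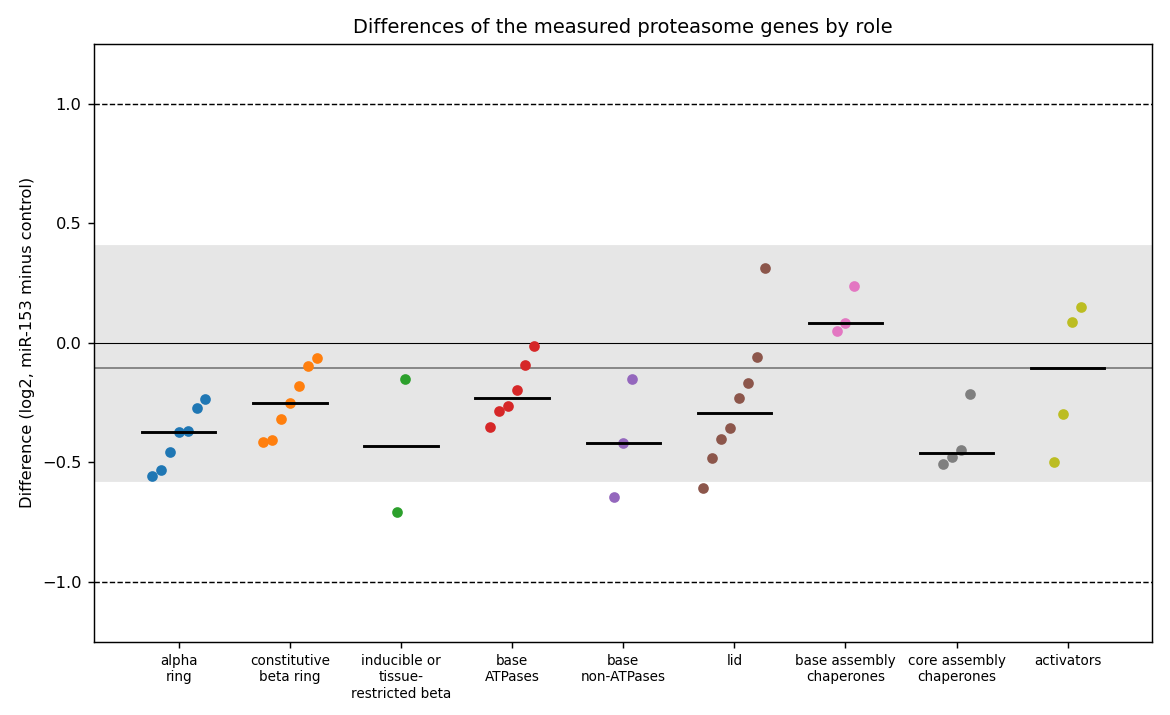
Difference (log2, miR-153 minus control, y axis) of the 44 measured proteasome genes by role (x axis); points are genes, short bars are medians, the grey line and band are the median and middle 50% of all genes, and dashed lines are 2-fold. All points lie inside the dashed lines, between -0.71 and 0.31, and with spike-in scaling all would stand 0.25 higher, so that the medians of the beta ring, the base ATPases and the activators turn above 0.

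The core assembly chaperones Psmg1 to Psmg4, which act in pairs on the alpha ring, had a median of -0.46, or -0.21 with spike-in scaling. Psmg2 had 2.60 on the miR-153 array and 3.11 on the control array, a difference of -0.51. Psmg1, its partner, had 3.77 on the miR-153 array and 4.24 on the control array, a difference of -0.48, with a second probe at -0.56. Psmg4 had 1.90 on the miR-153 array and 2.35 on the control array, a difference of -0.45. Psmg3, its partner, had 2.32 on the miR-153 array and 2.54 on the control array, a difference of -0.21, which turned above 0 with spike-in scaling.

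The base chaperones Psmd5, Psmd9 and Psmd10, which hold ATPase pairs before the ring closes, had a median of 0.081 on their brightest probes, which turned to -0.077 with the mean of all probes. Psmd5 had 2.04 on the miR-153 array and 1.80 on the control array, a difference of 0.24 on its only probe. Psmd10, also known as gankyrin, had 0.35 on the miR-153 array and 0.27 on the control array, a difference of 0.081, and its second probe gave -0.30. Psmd9 had 0.60 on the miR-153 array and 0.55 on the control array, a difference of 0.051, and its second probe gave -0.21. The sign of Psmd9 and Psmd10 thus depended on the probe, and that of Psmd5 held over all settings.

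Among the activators, Psme1 and Psme2, which together form the PA28 ring induced by interferon, had positive differences in every setting, and Psme3 and Psme4 negative ones. The probe of Psme1 was printed in 10 spots per array. Its spots ran from 3.28 over a median of 3.32 to 3.38 on the miR-153 array and from 3.08 over 3.17 to 3.29 on the control array, with 0.15 ± 0.044 for the difference (SD over 10 spots of 1 array pair, a technical error). The spot ranges overlapped slightly, and each of the 10 spots was higher on the miR-153 array at its own position, by 0.080 to 0.22. Psme2 had 5.08 on the miR-153 array and 4.999 on the control array, a difference of 0.085, and its second probe gave 0.23. Another Psme2 probe was near the floor, at 19.7 intensity units and background in control cells, and at 42.7 in miR-153 cells, where it passed background. Its listed position spans 219297 bases, and whether it reads Psme2 was not tested. RefSeq also lists Psme2b, a coding copy, and whether the Psme2 probes also read its RNA was not tested. Psme1 and Psme2 lie close together on chromosome 14, with 1 protein-coding gene starting between them in the RefSeq table.

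Psme3, the nuclear PA28 gamma, had 1.30 on the miR-153 array and 1.80 on the control array, a difference of -0.50 or 1.41-fold lower. Psme4, which encodes PA200, had 0.71 on the miR-153 array and 1.01 on the control array, a difference of -0.30. Its second probe was at -0.94 on the miR-153 array and 0.099 on the control array, a difference of -1.04, which is past 2-fold. The brighter Psme4 probe lies at chr11:30756055-30756114 and the other at chr11:30710953-30711012 on mm9. The gap of 0.74 between them was the largest among the 11 proteasome genes measured by 2 probes.

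**Figure D3:**
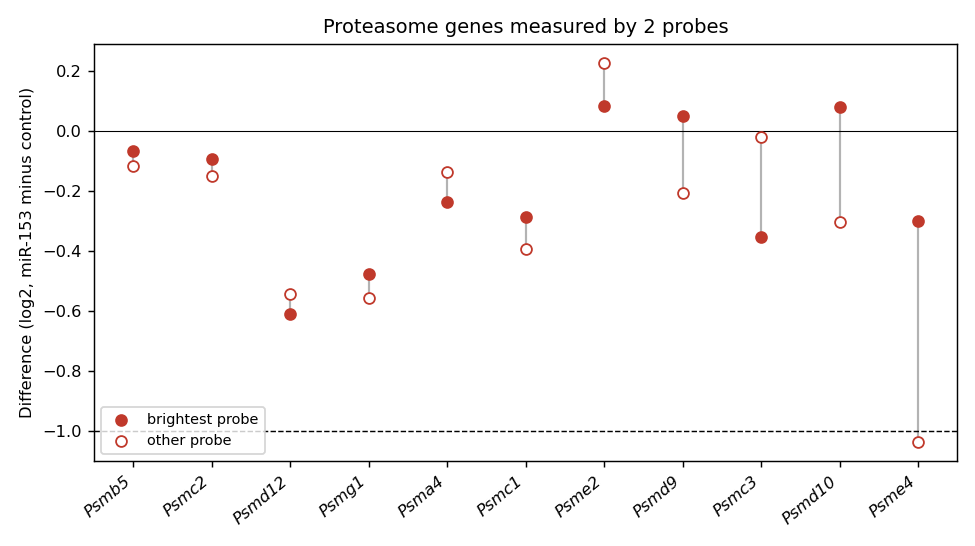
Difference (log2, miR-153 minus control, y axis) for each probe of the 11 proteasome genes measured by 2 probes (x axis, ordered by the gap), with the brightest probe filled and the dashed line at 2-fold lower. In 9 of 11 genes both probes have 1 sign, and with the 0.25 that spike-in scaling adds both probes of Psmb5, Psmc2, Psma4 and Psmd9 lie above 0.

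Among those 11 genes the median gap between probes was 0.11, and both probes had 1 sign in 9 of them. The SD between probes of a gene was 0.21, against 0.46 over RefSeq-matched genes. Psmb5, Psmc2, Psmd12 and Psmg1 had gaps from 0.050 to 0.079. Psmd9, Psmd10, Psmc3 and Psme4 had gaps from 0.26 to 0.74.

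Psmc3ip, found by the name rule but no proteasome gene, was at -0.18 on the miR-153 array and 1.26 on the control array, 2.73-fold lower (-1.45). It encodes a partner of recombinases in homologous recombination. Its difference was more negative than that of any of the 44 proteasome genes, and counting it with them gave a median of -0.29.

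Proteasome probes were bright, and differences of all genes varied with level. When the measured genes were put in 8 equal bins by mean level, 21 of the 44 were in the brightest bin and 13 in the next. In the brightest bin the median was -0.35 for the 21 proteasome genes and -0.43 for all 2559 genes. In the next bin it was -0.20 for 13 proteasome genes and -0.05 for all, and in the one below -0.33 for 6 proteasome genes and 0.04 for all. The proteasome median was thus above that of all genes in the brightest bin and below it in the next 2 bins. In the brightest bin 20 of 21 proteasome genes were below 0, against 75.5% of all genes there. Within 1.5-fold lay 19 of the 21, against 54.4% of all genes in that bin, and 13 of the 13, against 64.1% in the next. At 2-fold or more either way stood 12.2% of all genes in the brightest bin and 15.0% in the next, against 20.3% over all levels. The SD of all genes in the brightest bin was 0.62, against 0.88 over all levels. After lowess normalization, which sets the trend with level to 0, the proteasome median was -0.065.

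**Figure D4:**
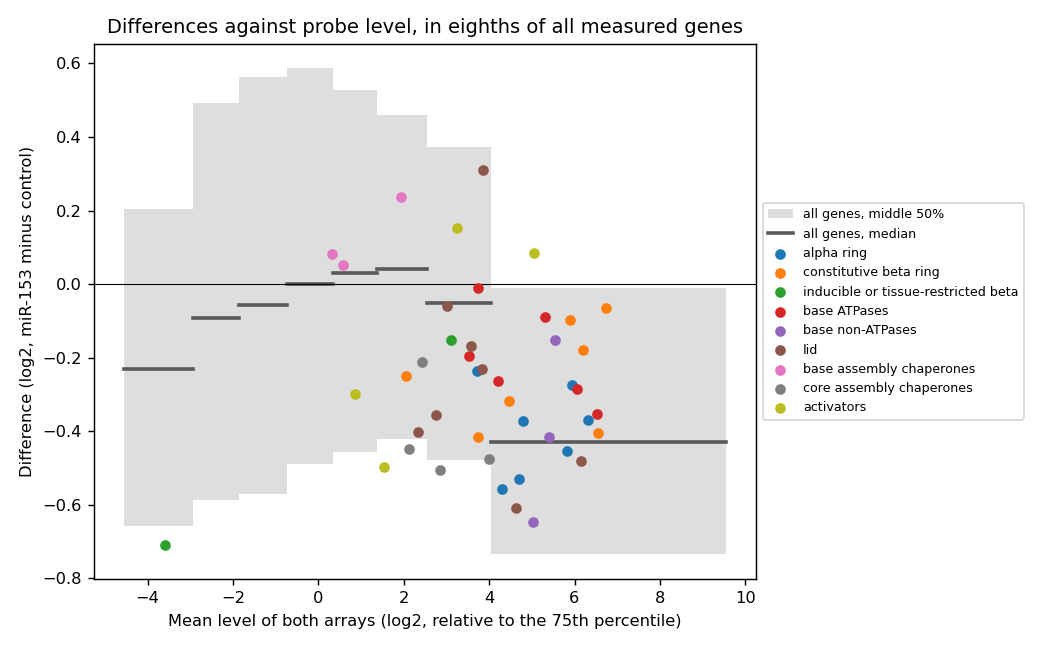
Difference (log2, miR-153 minus control, y axis) against the mean level of both arrays (x axis, log2 relative to the 75th percentile) for the 44 proteasome genes, coloured by role, over the median (dark lines) and middle 50% (grey) of all genes in 8 bins of level. In the brightest bin the median of all genes is -0.43 and most proteasome points lie above it. Spike-in scaling moves every point and line up by 0.25.

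Genes that act with the proteasome were more spread than the proteasome genes, but less than all genes. Of 34 read here, all measured on both, 4 were at least 2-fold lower, against 11.1% of all genes, and 1 at least 2-fold higher, against 9.21%, with a median of -0.24 (0.017 with spike-in scaling) and an SD of 0.65, against 0.88 over all genes. At least 1.5-fold lower were 9, against 24.6% of all genes, and at least 1.5-fold higher were 4, against 18.6%. Within 1.5-fold lay 61.8% of the list and 56.8% of all genes. The counts of lower genes were near the share of all genes, and those of higher genes were below it. None of the 13 genes at least 1.5-fold apart turned its sign in any setting. The most negative difference was that of Nfe2l2, the stress-activated factor, at 0.04 on the miR-153 array and 1.85 on the control array (-1.81). Nfe2l1, the factor that restores proteasome genes when the protease is blocked, was at -0.32 on the miR-153 array and -0.30 on the control array (-0.028). The small Maf proteins that pair with both factors were also among the lower, with Maff at -1.24 and Mafk at -1.21, while Mafg stood at -0.21. Bach1, a repressor that also pairs with small Maf proteins, was at 0.77.

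Processing of Nfe2l1 needs the protease Ddi2, which was at -0.92, and the deglycosylase Ngly1, which was dim and at 1.01, or 0.18 with the setting that moved it most. The cap also binds a pair of deubiquitinases. Uchl5 had 1.97 on the miR-153 array and 3.34 on the control array (-1.37), and Usp14 had 4.18 on the miR-153 array and 4.58 on the control array (-0.40, with another probe at 0.033). Adrm1, which docks Uchl5 on the cap, was at -0.26. Pomp, the chaperone that completes the core, was at -0.47, with another probe at -0.30. Sem1, the smallest lid protein, was at -0.59, or -0.016 in the setting that moved it most. Psmf1, an inhibitor of the core, was at 0.35.

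Genes of substrate delivery differed in sign. The shuttle factors Ubqln1 (-0.77) and Rad23b (-0.61, with a second probe at -0.22) had negative differences and Ubqln2 (0.59) a positive one. Zfand5, a proteasome activator, was at 0.97, with probes from 0.040 to 1.02. Of the ubiquitin genes, Rps27a stood at -0.82 and Ubb at 0.34. Rps27a encodes ubiquitin fused to a ribosomal protein, and it came as near to 0 as -0.094 under another setting. Uba1, the main ubiquitin activating enzyme, was at 0.17 and Vcp, the unfoldase upstream of the proteasome, at -0.066.

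Other large complexes were read beside the proteasome. The COP9 signalosome, whose subunits are related to the lid, had a median of -0.18 and an SD of 0.31 over 9 genes. Translation initiation factor eIF3, likewise related to the lid, had -0.40 and 0.28 over 13 genes. The chaperonin CCT, which folds actin and tubulin, had -0.60 and 0.19 over 8 genes, of which 8 were below 0, or 7 with spike-in scaling. At 2-fold or more, 0 genes of these 3 complexes were higher or lower, against 20.3% of all genes either way. The proteasome median of -0.28 lay between those of COP9 and eIF3, but was the lowest of these 3 with quantile normalization (-0.13, against -0.074 for COP9 and -0.11 for eIF3), and the differences between these lists were not tested.

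**Figure D5:**
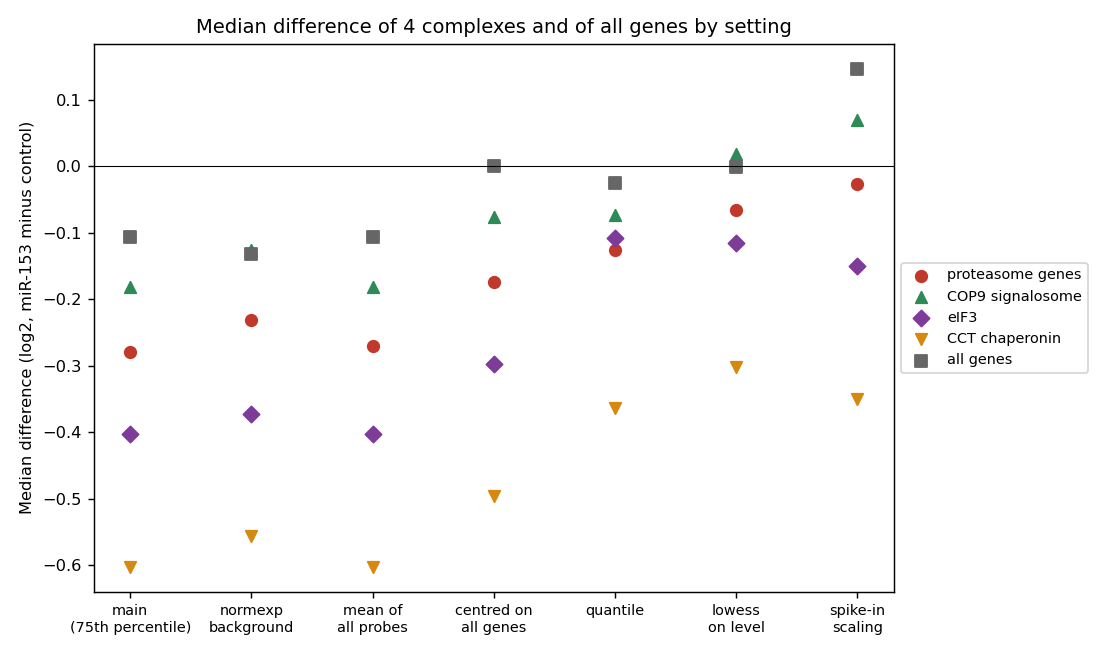
Median difference (log2, miR-153 minus control, y axis) of the proteasome genes, 3 other complexes and all genes under 7 settings (x axis). The proteasome median runs from -0.28 in the main setting to -0.027 with spike-in scaling. That of the COP9 signalosome turns above 0 with lowess and spike-in scaling, and that of all genes with spike-in scaling.

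Marker genes checked the labelled cell type. All 12 neural stem and progenitor markers were measured on both arrays, with summed linear levels of 731 on the miR-153 array and 734 on the control array. Single markers went both ways, with 5 at least 1.5-fold lower (24.6% of all genes), 3 at least 2-fold higher (9.21% of all genes) and an SD of 1.10. Nes (-0.95) and Hes1 (-0.82) had negative differences, and Hes5 (2.44), Prom1 (1.74) and Sox1 (1.15, with another probe at 0.40) positive ones. Notch1, among the 5 lower, was at -0.74 with another probe at 0.56. Young neuron markers were higher, 6 of 6 above 0, against 8982 of the 20473 genes measured on both arrays. Their summed level was 108 on the miR-153 array and 27.9 on the control array. Proliferation markers were at least 2-fold lower in 8 of 8, against 11.1% of all genes. Their summed levels were 43.9 on the miR-153 array and 179 on the control array. Of 4 embryonic stem cell markers, Nanog (-0.11, with another probe at 0.76) and Esrrb (-2.48) were measured on both arrays. Zfp42 was at background on both and Pou5f1 on the control array. The part of these markers in the proteasome values was not tested. The share of non-control spots above background was 55.6% on the miR-153 array and 52.5% on the control array, the 75th percentile was 549 intensity units on the miR-153 array and 435 on the control array, and 0 spots were saturated.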

How the data were processed

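RNA of 1 miR-153 and 1 control sample was labelled with Cy3 and hybridised to 1-colour Agilent arrays, per the labels' protocols. The authors deposited scanner intensity values, for which the submitters' processing notes name Agilent Feature Extraction 10.7.3.1. Its processed signal column is an intensity after background subtraction, per the file headers. A deposited series table holds the same intensity divided by 485 (miR-153) and 381 (control), with medians of 0.0614 and 0.0662, so it is linear and uncentred. Columns of other samples numbered 0. Each level is the log2 processed signal less that array's 75th percentile over non-control spots. Spots with an outlier flag (229) were left out, repeat spots averaged, and 55674 probes of 36493 gene names remained. Probe accessions were matched to RefSeq names of GRCm38 (26296 probes, 58 of the 59 member probes). Probe positions are on mm9. A gene was measured when well above background on both arrays.

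Every member may be named, with values of both arrays for the 3 lowest and the 3 highest or nearest to 0 of a role, and related pathway genes at least 1.5-fold apart are named. The other pathway genes and the 4 windows shown were picked with values in view. Members, lists, motifs and alternatives were chosen with earlier results of these data known. Some member and list genes are not reported here and enter no member or list value. Alternatives were normexp (limma 3.58.1, R 4.3.3, offset 50), spike-in, quantile, lowess and median scaling, other probe choices, other filters on dim probes, and the series table. Counting Psmc3ip was chosen after seeing the data. The code was tested on simulated data. Figures were drawn with matplotlib 3.10.9 from tables made with pandas 2.3.3, and lowess came from statsmodels 0.14.6.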

Additional observations from a re-analysis of the deposited data

How the results depend on the processing

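No paired analysis was possible because each group has 1 array, and leaving out a replicate was impossible for the same reason. The proteasome median of -0.28 stayed below 0 in all settings tried. It moved by more than the repeat-spot SD with spike-in scaling (-0.027), lowess (-0.065), quantile normalization (-0.13) and centring on the median of all genes (-0.17). With the second brightest probe the median was -0.21. Values for second probes cover 11 genes only, so they are not a like comparison with the 44. The count below 0, 38 of 44, was 24 with spike-in scaling, 25 with quantile normalization and 10 of 11 with second probes. The count at least 2-fold lower, 0, was 1 with second probes (Psme4) and 1 with Psmc3ip counted; the count at least 2-fold higher was 0 in each setting tried. Within 1.5-fold lay 41 to 44 of the genes under every setting with all 44 measured genes. Signs turned for 14 genes with spike-in scaling, 13 with quantile normalization, 11 with lowess, 5 with median centring, 2 with the mean of all probes and 1 with normexp. The cause was not tested. The limits are 1 array per group, a median scanner error near 10% of signal, and probes that may also catch processed pseudogenes. The RefSeq table names 6 of these for these families.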
